A study of Mus musculus with 9 samples.

Results

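The comparison of 8 h of light with darkness in the dorsal lateral geniculate nucleus (dLGN) rests on 6 of the 9 RNA libraries of the series, chosen by their labelled light time. The light_8h group holds 3 libraries from C57BL/6J mice that were returned to light for 8 h, and the light_0h group holds 3 libraries from C57BL/6J mice of the same age that saw no light before dissection. All of these animals had been dark-reared between postnatal day 20 and postnatal day 27, so the 0 h group is a dark-reared baseline and not a group raised under normal light. The labels give 3 mice per time, each an independent sample, and do not give their sex, and the tissue was cut by eye from brain slices. RNA was depleted of ribosomal RNA before sequencing, and reads were counted for 20399 genes in the 2 tables of this comparison.

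The dLGN is the part of the thalamus that passes signals from the retina to the visual cortex. After time in darkness, the first light drives strong firing of its neurons, and activity of that kind is known to switch on genes in waves. The early wave encodes transcription factors such as the FOS and EGR proteins, and the later wave encodes secreted, membrane and signalling proteins that act on synapses. The series asks about one such membrane protein, Fn14, the receptor for the cytokine TWEAK, which is encoded by Tnfrsf12a. Glucocorticoids, the adrenal hormones of stress and of the daily cycle, act through a receptor that switches on a gene set of its own, and light resets the clock through the Per genes.

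Total gene counts ran from 17.4 M to 22.6 M reads in the 8 h libraries and from 5.73 M to 18.4 M in the 0 h libraries. Markers of thalamic relay neurons were present in every library. Prkcd, a protein kinase C, stood at 1430 to 1641 CPM (gene counts scaled to the library total) at 8 h and 1235 to 1321 CPM at 0 h, and Slc17a6, the vesicular glutamate transporter of thalamic neurons, at 445 to 478 CPM at 8 h and 415 to 473 CPM at 0 h. Tcf7l2, a thalamic transcription factor, stood at 339 to 366 CPM at 8 h and 286 to 344 CPM at 0 h. Neurod6, a factor of cortical and hippocampal neurons, stood at 3.60, 0.427 and 0.287 CPM in 8 h replicates 1 to 3 and at 0.341, 18.2 and 0.731 CPM in 0 h replicates 1 to 3, so that 0 h replicate 2 was the highest. Gad2, a GABA-synthesising enzyme, was lowest in that same library, at 54.8 CPM against 132 to 172 CPM elsewhere. Xist, expressed from the inactive X chromosome of females, stood at 217, 853 and 457 CPM at 8 h and at 493, 518 and 0.332 CPM at 0 h, and the Y-linked gene Ddx3y at 38.4, 0.0534 and 28.6 CPM at 8 h and at 15.4, 25.5 and 60.3 CPM at 0 h. RNA of both kinds was thus present in 4 of the 6 libraries, although the labels give 1 mouse for each. The part of these library differences in the results was not tested beyond the fits that leave libraries out.

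After 8 h of light, 81 genes were higher and 9 were lower than after 0 h, of 15330 tested (edgeR quasi-likelihood test, Benjamini-Hochberg adjusted p under 0.05 over all genes). That is 0.528% of tested genes in the upward and 0.0587% in the downward direction. Of the genes that rose, 24 at least doubled, 6 reached 4-fold, and 32 rose by less than 1.5-fold. None of the falls reached a halving. The median log2 fold change was 0.65 for the genes that rose, -0.54 for those that fell and -0.01 over all genes tested. The 3 libraries of each group stood fully apart for 8.52% of tested genes in the upward and 7.76% in the downward direction, and for all 90 called genes, which passing the test favours.

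**Figure D1:**
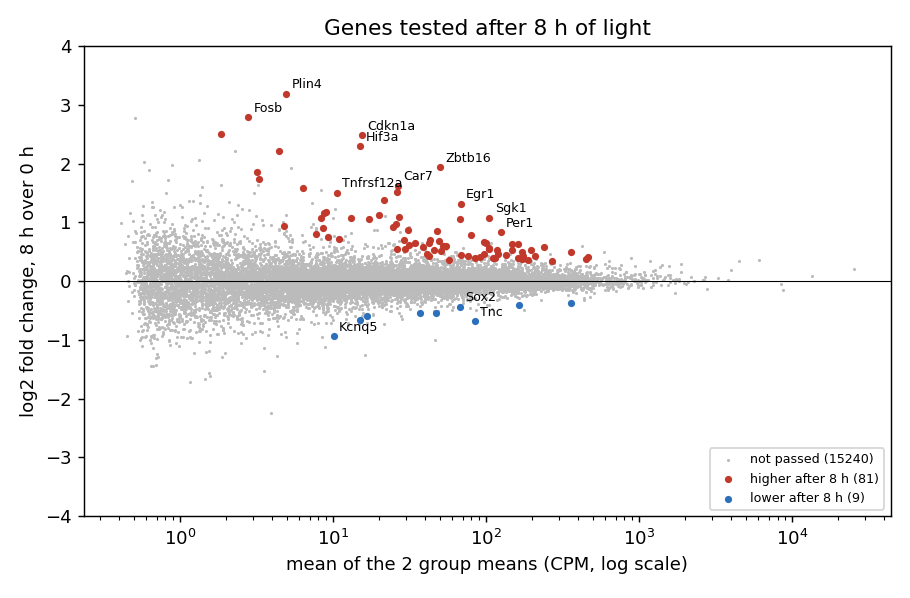
Log2 fold change of 8 h over 0 h for each of the 15330 genes tested, against the average of both group means in CPM on a log scale. The 81 genes that rose (red) extend to a log2 fold change of 3.18, the 9 that fell (blue) extend to -0.94, and grey points did not pass.

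The number of calls depends on single libraries. A fit without 8 h replicate 2 called 33 genes, of which 32 were among the 90, and a fit without 0 h replicate 1, the library with the fewest reads, called 49, of which 42 were among the 90. In all 6 fits that left out a single library, 28 genes were called each time, all of them higher. Of the 81 genes that rose, 47 had their top value in 8 h replicate 2, 21 in 8 h replicate 1 and 13 in 8 h replicate 3. The median log2 difference of the 81 genes from the 0 h mean was 0.66, 0.73 and 0.59 in 8 h replicates 1 to 3, and -0.02, -0.03 and 0.03 in the 0 h replicates, but passing the test favours genes whose libraries lie close, so these medians do not bear on the spread between libraries.

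Tnfrsf12a (Entrez gene 27279, chr17:23675445-23677449, minus strand, 4 exons, GRCm38) stood at 16.7, 16.9 and 13.7 CPM in 8 h replicates 1 to 3, and at 4.27, 5.45 and 6.38 CPM in 0 h replicates 1 to 3. Every 8 h library was more than 2 times every 0 h library, with a ratio of 2.14 between the closest pair. The log2 fold change was 1.51 ± 0.15 (SE, adjusted p = 0.00179, n = 3 per group, edgeR). Its ligand gene Tnfsf12 stood at 2.30, 2.24 and 2.35 CPM at 8 h and at 2.05, 1.76 and 2.06 CPM at 0 h, and did not pass (log2 fold change 0.25 ± 0.21 SE, adjusted p = 0.759). About 50.7% of the exonic bases of Tnfsf12 are shared with the readthrough gene Tnfsfm13 on the same strand, so its count is uncertain.

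TNF family receptors can switch on the NF-kB pathway through TRAF adaptors. A list of Fn14 and TNF receptor signalling held genes of both, Tnfrsf12a and Tnfsf12 included. Of its 26 tested genes, 2 rose, Tnfrsf12a among them, 0 fell and 24 did not pass. The rises are 7.69% of the list, against 0.528% of all genes tested. The median log2 fold change of the list was at 0.00, as over all genes. Nfkbia, which encodes the inhibitor that holds NF-kB in the cytoplasm and is itself a target of NF-kB and of the glucocorticoid receptor, was the other member that rose. It stood at 25.0, 22.3 and 22.3 CPM at 8 h and at 8.88, 12.03 and 11.6 CPM at 0 h (log2 fold change 1.06 ± 0.12 SE, adjusted p = 0.00287). The NF-kB subunit genes Relb and Rel had log2 fold changes of 0.49 and 0.44 with groups that stood apart, and Nfkb1 had -0.06, none of which passed. In this list 5 of 26 members stood apart upwards and 1 downwards, against 8.52% and 7.76% of all genes tested.

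The Tnfrsf12a promoter window is printed here because it belongs to the receptor that the series is named for, beside windows of 3 activity-induced transcription factors that also rose. Each window runs from 250 bases before to 50 bases after an annotated start, from RefSeq on GRCm38.p6, written 5′ to 3′ on the strand of the gene. Capitals mark letters of any of 8 motifs searched on both strands. These were AP-1 (TGANTCA), CRE (TGACGTCA), EGR (GCGGGGGCG or GCGTGGGCG), E-box (CACGTG), the glucocorticoid receptor half-site pair (ACANNNTGT), STAT (TTCNNNGAA), and the SRF and NF-kB consensus motifs. Each of the following windows holds an EGR motif, and in Tnfrsf12a 2 copies overlap. The 3 factors shown are those with an EGR motif among 4 called factors with a window, and each also holds an NF-kB motif. The window of Junb, which is not shown, holds none of the 8 motifs. The windows of Tnfrsf12a and Fosl2 lie at the outermost start of the gene, and those of Fosb and Nr4a1 at a start inside it.
Tnfrsf12a, chr17:23677400-23677699, minus strand: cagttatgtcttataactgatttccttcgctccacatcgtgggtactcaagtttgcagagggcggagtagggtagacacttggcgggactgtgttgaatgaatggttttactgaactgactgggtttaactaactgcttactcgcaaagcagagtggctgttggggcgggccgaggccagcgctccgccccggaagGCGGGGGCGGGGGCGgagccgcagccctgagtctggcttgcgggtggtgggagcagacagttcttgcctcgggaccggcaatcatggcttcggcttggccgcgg
Fosb, chr7:19309996-19310295, minus strand: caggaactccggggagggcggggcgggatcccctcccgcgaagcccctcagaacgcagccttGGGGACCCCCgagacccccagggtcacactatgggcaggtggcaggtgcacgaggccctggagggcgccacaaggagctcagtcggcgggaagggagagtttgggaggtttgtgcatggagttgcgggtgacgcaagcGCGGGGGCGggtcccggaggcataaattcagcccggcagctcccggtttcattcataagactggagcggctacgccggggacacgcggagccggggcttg
Fosl2, chr5:32136222-32136521, plus strand: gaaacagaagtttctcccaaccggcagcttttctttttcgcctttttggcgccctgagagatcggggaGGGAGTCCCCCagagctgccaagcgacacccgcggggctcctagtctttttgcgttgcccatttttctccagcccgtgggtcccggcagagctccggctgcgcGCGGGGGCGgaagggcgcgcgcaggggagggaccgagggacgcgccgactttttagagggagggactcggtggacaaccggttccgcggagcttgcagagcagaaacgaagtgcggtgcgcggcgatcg
Nr4a1, chr15:101266596-101266895, plus strand: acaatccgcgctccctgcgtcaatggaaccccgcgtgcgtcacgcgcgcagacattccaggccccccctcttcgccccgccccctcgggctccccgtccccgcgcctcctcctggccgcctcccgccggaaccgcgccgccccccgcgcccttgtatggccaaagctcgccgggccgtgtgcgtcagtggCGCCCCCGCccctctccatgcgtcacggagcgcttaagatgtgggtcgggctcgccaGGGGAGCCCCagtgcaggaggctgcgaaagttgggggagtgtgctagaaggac

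An EGR motif was found in 13.8% of the 87 promoter windows of genes that rose, in 33.3% of the 12 windows of genes that fell and in 6.34% of the 15048 windows of all genes tested. RefSeq windows were at hand for 66 of the 81 genes that rose, for 9 of the 9 that fell and for 11726 of all 15330. For the 28 genes called in all 6 single-library fits the share was 5.56% of 36 windows, below that of all genes. An AP-1 motif was in 4.6% of windows of genes that rose and 5.0% of all windows, and a CRE in 1.15% and 2.86%. A match in such a window is a description of letters and not of a bound site.

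Of 27 tested genes on the list of rapid activity transcription factors, 5 rose, 0 fell and 22 did not pass. The rises are 18.5% of the list, against 0.528% of all genes tested. Members were chosen with earlier results of these data known. Fosb, an AP-1 subunit that outlasts the first wave, stood at 5.05, 6.57 and 3.04 CPM at 8 h and at 0.512, 0.642 and 0.864 CPM at 0 h (log2 fold change 2.79 ± 0.35 SE, adjusted p = 0.0064). The 0 h values rest on few reads, since 3 reads make 0.512 CPM in 0 h replicate 1. Egr1, a zinc finger factor of the early wave, stood at 109, 94.0 and 90.5 CPM at 8 h and at 29.5, 43.7 and 41.9 CPM at 0 h (log2 fold change 1.32 ± 0.13 SE, adjusted p = 0.00127). Both genes stood far apart between the groups, and both were called in all 6 single-library fits.

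The other members that rose were smaller in size and less stable. Nr4a1, an orphan nuclear receptor, stood at 36.3, 35.3 and 30.2 CPM at 8 h and at 14.9, 15.2 and 21.3 CPM at 0 h (log2 fold change 0.97 ± 0.14 SE, adjusted p = 0.0121). It lost its call in the fits without 0 h replicate 1 (adjusted p = 0.0616) and without 8 h replicate 2 (0.0758). Fosl2, an AP-1 subunit, rose by 0.89 ± 0.15 and Junb, a partner of FOS proteins, by 0.75 ± 0.14 on the log2 scale (SE, adjusted p = 0.0332 and 0.0426), and each was called in just 1 of the 6 single-library fits. Fosl2 stood at 11.8, 12.6 and 8.95 CPM at 8 h and at 5.80, 5.93 and 6.18 CPM at 0 h, and Junb at 11.1, 12.4 and 11.2 CPM at 8 h and at 6.14, 6.36 and 7.97 CPM at 0 h. The fit that called it was the one without 8 h replicate 3 for Fosl2, and the one without 0 h replicate 3 for Junb.

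Several of the best-known early genes did not pass at 8 h. Fos stood at 31.3, 31.2 and 25.9 CPM at 8 h and at 13.3, 6.47 and 21.7 CPM at 0 h (log2 fold change 1.11 ± 0.31 SE, adjusted p = 0.198). Its groups stood apart, and its 0 h libraries spread over more than 3-fold. Npas4, a factor specific to neurons, stood at 13.7, 16.8 and 12.05 CPM at 8 h and at 10.1, 7.91 and 12.2 CPM at 0 h, with overlapping groups (adjusted p = 0.34). Egr4, an EGR family member, lay at 1.64 ± 0.32 (log2 ± SE, adjusted p = 0.0563), with groups apart upwards, and Nr4a2, an orphan nuclear receptor, at -0.81 ± 0.26 (log2 ± SE, adjusted p = 0.282), with groups apart downwards.

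Of 29 tested activity-regulated effectors, 6 rose, 0 fell and 23 did not pass. The rises are 20.7% of the list, against 0.528% of all genes tested. Members of this list too were chosen with earlier results of these data known. Trib1, a pseudokinase that steers protein breakdown, stood at 39.0, 36.4 and 34.9 CPM at 8 h and at 15.7, 17.9 and 17.8 CPM at 0 h (log2 fold change 1.09 ± 0.09 SE, adjusted p = 0.000567). Vgf, the precursor of secreted neuropeptides, stood at 289, 282 and 281 CPM at 8 h and at 174, 179 and 213 CPM at 0 h (log2 fold change 0.59 ± 0.08 SE, adjusted p = 0.00797). Gadd45g, a stress and growth-arrest protein linked to DNA demethylation, rose by 1.07 ± 0.15 (log2 ± SE, adjusted p = 0.0106), with 15.99, 15.3 and 21.6 CPM at 8 h and 8.19, 8.66 and 8.24 CPM at 0 h. It lost its call without 0 h replicate 1 (adjusted p = 0.0593). Lingo1, a membrane protein that restrains myelination and axon growth, rose by 0.49 ± 0.07 (log2 ± SE, adjusted p = 0.0103) with 422, 408 and 414 CPM at 8 h and 281, 324 and 282 CPM at 0 h, and lost its call without 8 h replicate 2 (adjusted p = 0.0612). Per1 and Dusp1 complete the 6 and are described with the clock and the glucocorticoid-induced genes.

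Arc, Bdnf and Igf1, classic effectors of the list, did not pass, which does not show that their levels were unchanged. Log2 fold changes of the whole list ran from -1.208 to 1.085, with 20 members above 0 and 9 below. Arc, which regulates AMPA receptor removal, stood at 30.0, 19.8 and 20.8 CPM at 8 h and at 34.0, 25.7 and 23.9 CPM at 0 h (log2 fold change -0.21 ± 0.17 SE, adjusted p = 0.741). Bdnf, a neurotrophin, stood at 2.52, 4.01 and 1.55 CPM at 8 h and at 2.22, 4.92 and 3.06 CPM at 0 h (log2 fold change -0.41 ± 0.35 SE, adjusted p = 0.755). Igf1, a growth factor, stood at 20.9, 26.5 and 26.8 CPM at 8 h and at 19.8, 20.8 and 28.5 CPM at 0 h (log2 fold change 0.08 ± 0.15 SE, adjusted p = 0.902). The groups overlapped for these 3 genes. On the list of phosphatases and Sprouty proteins that damp ERK signalling, 1 of 16 tested members was called, Dusp1. The call is 6.25% of the list, against 0.528% of all genes tested called higher. The median log2 fold change of the list was 0.18. In that list 7 of 16 genes stood apart upwards, as did 8.52% of all genes tested. Among the 7 were Dusp4 at 0.69 ± 0.19 and Dusp6 at 0.23 ± 0.09 (log2 ± SE, adjusted p = 0.178 and 0.371).

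Glucocorticoid-induced genes held the largest share of calls of the 26 lists. Of 26 tested members, 16 rose, 0 fell and 10 did not pass, and 23 lay above 0. The median log2 fold change was 0.84, where that of all genes was -0.01. The groups of 21 members stood apart upwards. Over all genes tested, 8.52% stood apart upwards and 0.528% were called higher. Members of the list were chosen with earlier results of these data known, so the share of the list does not stand as separate evidence. The summed level of the list was 2749, 3031 and 2796 CPM in 8 h replicates 1 to 3 and 1959, 1881 and 2094 CPM in 0 h replicates 1 to 3.

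Plin4, a coat protein of lipid droplets, had the largest rise of all called genes. It stood at 5.72, 13.6 and 7.51 CPM at 8 h and at 0.683, 1.02 and 1.06 CPM at 0 h (log2 fold change 3.18 ± 0.37 SE, adjusted p = 0.00396). The value of 0 h replicate 1 rests on few reads, since 3 reads make 0.512 CPM there. The 8 h libraries were uneven, with replicate 2 well above the others. All 6 single-library fits called Plin4, at log2 fold changes of 2.75 to 3.43. Cdkn1a, the cell cycle inhibitor p21, stood at 22.2, 34.2 and 22.3 CPM at 8 h and at 3.24, 4.38 and 5.85 CPM at 0 h (log2 fold change 2.48 ± 0.22 SE, adjusted p = 0.0011). Hif3a, a member of the hypoxia-inducible factor family that can restrain its relatives, stood at 22.03, 23.8 and 29.5 CPM at 8 h and at 4.61, 5.24 and 5.18 CPM at 0 h (log2 fold change 2.30 ± 0.14 SE, adjusted p = 0.000155). Hif3a (Entrez gene 53417, chr7:17030993-17062427, minus strand) had the smallest adjusted p of all genes. Among these 3 genes, the value of 8 h replicate 2 was the top one for Plin4 and Cdkn1a, and that of 8 h replicate 3 for Hif3a.

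Zbtb16, a zinc finger transcription factor also known as PLZF, stood at 75.8, 99.2 and 59.5 CPM at 8 h and at 23.2, 17.5 and 21.7 CPM at 0 h (log2 fold change 1.94 ± 0.18 SE, adjusted p = 0.0011). Map3k6, a kinase of stress signalling, stood at 4.50, 5.29 and 5.05 CPM at 8 h and at 1.37, 1.44 and 1.26 CPM at 0 h (log2 fold change 1.86 ± 0.20 SE, adjusted p = 0.0028). Both were called in all 6 single-library fits. Fkbp5, a co-chaperone that lowers the affinity of the glucocorticoid receptor for its hormone, stood at 29.5, 54.1 and 33.1 CPM at 8 h and at 12.97, 14.8 and 12.6 CPM at 0 h (log2 fold change 1.52 ± 0.21 SE, adjusted p = 0.0106). Its 8 h libraries were uneven, with replicate 2 well above the others, and it lost its call in the fits without 0 h replicate 1 (adjusted p = 0.0653) and without 0 h replicate 3 (0.0589).

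Sgk1, a kinase that raises the surface level of ion channels and transporters, stood at 138, 126 and 162 CPM at 8 h and at 66.7, 73.6 and 61.3 CPM at 0 h (log2 fold change 1.08 ± 0.10 SE, adjusted p = 0.00118). Here 8 h replicate 3 was highest and 8 h replicate 2 lowest, whereas 8 h replicate 2 was highest for Plin4, Cdkn1a, Zbtb16 and Fkbp5. Dusp1, which removes phosphate from MAP kinases, stood at 58.9, 57.5 and 68.4 CPM at 8 h and at 35.3, 29.3 and 38.4 CPM at 0 h (log2 fold change 0.85 ± 0.11 SE, adjusted p = 0.00696). Mertk, an engulfment receptor of astrocytes and microglia, stood at 38.7, 42.2 and 39.3 CPM at 8 h and at 21.2, 20.8 and 23.7 CPM at 0 h (log2 fold change 0.87 ± 0.08 SE, adjusted p = 0.00128). Arrdc2, an arrestin-domain protein, rose by 1.12 ± 0.13, and Klf9, a zinc finger factor, by 0.53 ± 0.06 on the log2 scale (SE, adjusted p = 0.00304 and 0.00404). Arrdc2 stood at 25.0, 24.4 and 31.8 CPM at 8 h and at 13.7, 12.7 and 11.5 CPM at 0 h, and Klf9 at 233, 227 and 230 CPM at 8 h and at 155, 171 and 152 CPM at 0 h. Of the 16 members that rose, 9 had their top value in 8 h replicate 2, 3 in replicate 1 and 4 in replicate 3.

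Tsc22d3, Mt2 and Klf15 were each called in 1 or 2 of the 6 single-library fits. Tsc22d3, which encodes the glucocorticoid-induced leucine zipper, stood at 188, 212 and 184 CPM at 8 h and at 121, 106 and 150 CPM at 0 h (log2 fold change 0.63 ± 0.11 SE, adjusted p = 0.0397). Without 8 h replicate 2 its adjusted p was 0.209, and without 0 h replicate 1 it was 0.143. Mt2, a metal-binding metallothionein, rose by 1.05 ± 0.19 and Klf15, a metabolic zinc finger factor, by 0.61 ± 0.11 on the log2 scale (SE, adjusted p = 0.0426 and 0.0425). Mt2 stood at 87.7, 106 and 77.9 CPM at 8 h and at 40.1, 31.9 and 58.8 CPM at 0 h, and Klf15 at 34.0, 39.6 and 38.7 CPM at 8 h and at 26.5, 26.8 and 20.7 CPM at 0 h. Their adjusted p was 0.209 and 0.223 without 8 h replicate 2. About 73.5% of the exonic bases of Mt2 overlap Gm45774 on the other strand, so reads of the pair can be told apart only if counting used the strand, which the labels do not say.

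Members of the list that did not pass had mixed levels. Sult1a1, a sulfotransferase, lay at 1.13 ± 0.23 (log2 ± SE, adjusted p = 0.0657). Glul, the glutamine synthetase of astrocytes, lay at 0.39 ± 0.08 and Pdk4, a kinase that shuts off pyruvate use, at -0.13 ± 0.14 (log2 ± SE, adjusted p = 0.0715 and 0.811). The groups of Sult1a1 and Glul stood apart, and those of Pdk4 overlapped. The receptor gene Nr3c1, which encodes the glucocorticoid receptor, stood at 225, 180 and 206 CPM at 8 h and at 236, 283 and 244 CPM at 0 h, with the groups apart in the downward direction (log2 fold change -0.32 ± 0.09 SE, adjusted p = 0.212). Nr3c2, the mineralocorticoid receptor, stood at 37.5, 38.0 and 33.3 CPM at 8 h and at 35.8, 58.1 and 37.3 CPM at 0 h (adjusted p = 0.574).

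**Figure D2:**
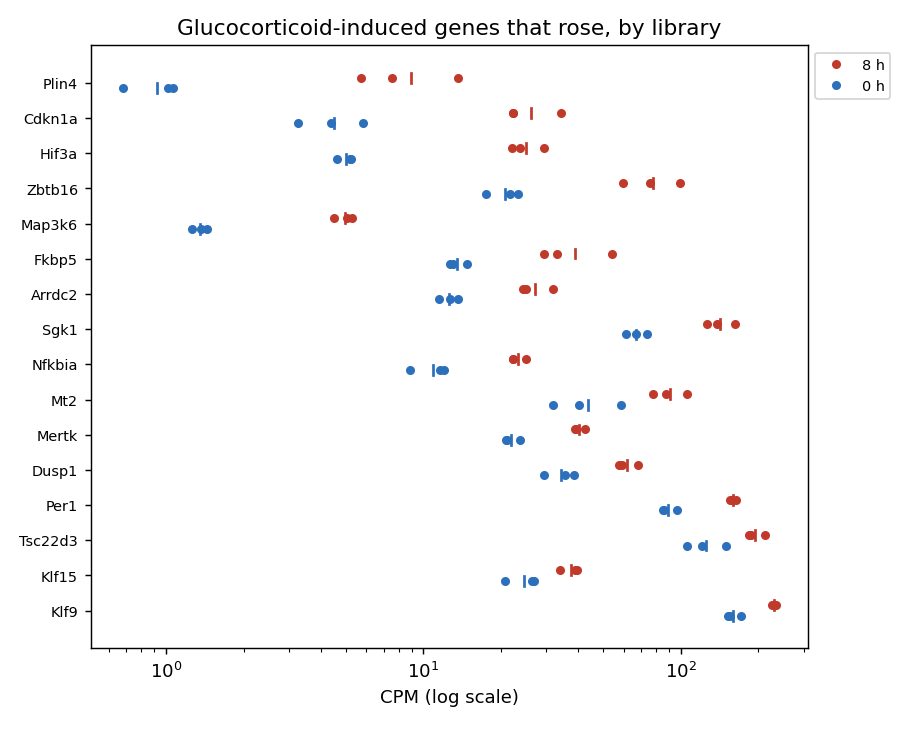
CPM on a log scale in each library for the 16 glucocorticoid-induced genes that rose, with 8 h libraries in red above 0 h libraries in blue and short bars at the group means (n = 3 each). The groups do not overlap for any of the 16, from Plin4 at the top, with the largest fold change, to Klf9 at the bottom, with the smallest.

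Promoter windows of 3 of these genes are shown because they carry the letters of a hormone or cyclic AMP motif in capitals, by the same search as above. Sgk1 and Map3k6 hold the glucocorticoid receptor half-site pair, and Sgk1 and Dusp1 hold an E-box, beside a CRE in Dusp1. The Dusp1 window lies at the outermost start of the gene, and the other two lie at starts inside it.
Sgk1, chr10:21993640-21993939, plus strand: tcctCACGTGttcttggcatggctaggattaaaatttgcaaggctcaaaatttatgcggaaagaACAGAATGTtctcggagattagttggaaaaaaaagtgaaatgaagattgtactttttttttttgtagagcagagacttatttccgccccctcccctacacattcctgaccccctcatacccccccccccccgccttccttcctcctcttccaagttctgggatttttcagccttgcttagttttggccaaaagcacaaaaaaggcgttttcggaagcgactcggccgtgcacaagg
Map3k6, chr4:133240568-133240867, plus strand: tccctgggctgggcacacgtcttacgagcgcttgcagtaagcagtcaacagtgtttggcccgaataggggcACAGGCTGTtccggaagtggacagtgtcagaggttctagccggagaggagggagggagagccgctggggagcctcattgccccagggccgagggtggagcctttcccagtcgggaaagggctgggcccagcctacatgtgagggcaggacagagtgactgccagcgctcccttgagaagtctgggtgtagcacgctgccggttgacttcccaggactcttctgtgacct
Dusp1, chr17:26508423-26508722, minus strand: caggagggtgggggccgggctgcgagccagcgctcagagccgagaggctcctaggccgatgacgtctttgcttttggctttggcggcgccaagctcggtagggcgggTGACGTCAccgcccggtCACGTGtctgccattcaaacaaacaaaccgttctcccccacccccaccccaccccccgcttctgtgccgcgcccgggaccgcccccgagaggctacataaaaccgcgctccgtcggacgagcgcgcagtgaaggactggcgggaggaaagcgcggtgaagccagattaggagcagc

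Windows were at hand for 15 of the 16 genes. The half-site pair was in 3 of their 24 windows, or 12.5%, and in 5.75% of windows of all genes that rose and 4.31% of all windows. The 3 windows belong to 2 genes, since Sgk1 has several annotated starts. The E-box was in 20.8% of the 24 windows and in 9.43% of all windows.

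In the clock list, 2 of 22 tested genes rose, 0 fell and 20 did not pass. The rises are 9.09% of the list, against 0.528% of all genes tested. Per1, a repressor of the clock that light induces, stood at 163, 158 and 156 CPM at 8 h and at 85.9, 96.7 and 85.5 CPM at 0 h (log2 fold change 0.83 ± 0.07 SE, adjusted p = 0.000567). Per2, its relative, stood at 32.1, 38.7 and 25.5 CPM at 8 h and at 16.6, 18.5 and 15.5 CPM at 0 h (log2 fold change 0.93 ± 0.15 SE, adjusted p = 0.0218). The Per1 libraries were tight within each group, whereas Per2 varied at 8 h and was called in 2 of the 6 single-library fits. The fits that lost it left out 0 h replicate 1 (adjusted p = 0.0839), 0 h replicate 3 (0.0884), 8 h replicate 1 (0.0567) and 8 h replicate 2 (0.0773).

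The other clock genes did not pass, although 16 of the 22 members lay above 0 and 5 stood apart upwards, Per1 and Per2 included. Of all genes tested, 48.7% lay above 0 and 8.52% stood apart upwards. Ciart, a repressor of the clock, stood at 10.6, 11.4 and 13.4 CPM at 8 h and at 7.51, 8.88 and 5.12 CPM at 0 h (log2 fold change 0.72 ± 0.19 SE, adjusted p = 0.16). Bhlhe41, also a repressor, stood at 81.9, 83.1 and 82.9 CPM at 8 h and at 70.5, 78.2 and 70.4 CPM at 0 h (log2 fold change 0.17 ± 0.07 SE, adjusted p = 0.379). The groups of Ciart, Bhlhe41 and Cry2 stood apart, those of Cry2 by a ratio of 1.01 between the closest libraries. Clock and Arntl, which encode the activating pair, had log2 fold changes of 0.00 ± 0.06 and -0.05 ± 0.11 (SE, adjusted p = 0.998 and 0.923). Cry2, a repressor that pairs with the PER proteins, stood at 159 to 165 CPM at 8 h and 142 to 156 CPM at 0 h, Nr1d1, which encodes REV-ERB alpha, at 111 to 133 CPM at 8 h and 110 to 136 CPM at 0 h, and Dbp, a clock output factor, at 94.0 to 117 CPM at 8 h and 85.7 to 121 CPM at 0 h (adjusted p = 0.529, 0.93 and 0.956). The median log2 fold change of the list was 0.04. The labels do not give the time of day of dissection, and 8 h of light and 8 h of elapsed time cannot be told apart between these groups.

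Several enzymes and transporters of fuel and ion handling were among the larger rises. Cftr, a chloride and bicarbonate channel, stood at 4.91, 5.13 and 4.88 CPM at 8 h and at 1.88, 1.28 and 1.53 CPM at 0 h (log2 fold change 1.73 ± 0.21 SE, adjusted p = 0.0045). Car7, which makes bicarbonate in neurons, stood at 41.5, 45.9 and 31.8 CPM at 8 h and at 13.3, 11.3 and 14.5 CPM at 0 h (log2 fold change 1.62 ± 0.15 SE, adjusted p = 0.0011). Both were called in every single-library fit. Car4, an extracellular carbonic anhydrase, stood at 58.9, 52.9 and 48.0 CPM at 8 h and at 40.5, 36.5 and 34.6 CPM at 0 h. It rose by 0.53 ± 0.09 (log2 ± SE, adjusted p = 0.0357) and was called in 1 of these 6 fits, with an adjusted p of 0.173 without 8 h replicate 2. The other 17 of 20 tested genes of chloride and bicarbonate handling did not pass, and the list had a median of -0.04.

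Ppp1r3g, which directs a phosphatase to glycogen, stood at 9.50, 11 and 7.46 CPM at 8 h and at 4.44, 3.10 and 2.39 CPM at 0 h (log2 fold change 1.58 ± 0.22 SE, adjusted p = 0.012). It was the 1 gene of 19 on the glycogen list that rose, and lost its call without 8 h replicate 2 (adjusted p = 0.0758). In the lipid and fuel list, Plin4 and Ppard, a fatty acid-sensing nuclear receptor, were the 2 of 22 that rose. The rises are 5.26% of the glycogen list and 9.09% of the lipid and fuel list, against 0.528% of all genes tested. Ppard stood at 109, 104 and 99.6 CPM at 8 h and at 81.1, 73.5 and 80.6 CPM at 0 h. It rose by 0.41 ± 0.07 (log2 ± SE, adjusted p = 0.0245), and no single-library fit called it, with an adjusted p of up to 0.139. Plin2, the widespread lipid droplet coat, had a log2 fold change of -0.64 with the groups apart in the downward direction, and did not pass.

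Slc2a1, the glucose transporter GLUT1 of the blood-brain barrier and of glia, stood at 122, 136 and 106 CPM at 8 h and at 79.9, 76.3 and 77.5 CPM at 0 h (log2 fold change 0.64 ± 0.09 SE, adjusted p = 0.00927). It was the 1 called gene of 22 endothelial and pericyte markers, or 4.55%, against 0.528% of all genes tested called higher. Cldn5 and Tek, both endothelial, had log2 fold changes of -0.54 and -0.45 with groups apart downwards, and Ly6c1, also endothelial, of 0.54 with groups apart upwards, none of which passed. The list therefore had no common direction, and its median was -0.06. None of the 20 sterol and fatty acid synthesis genes passed. Of these, 18 lay below 0, 7 stood apart downwards, and the median was -0.15, with Hmgcs1 of the sterol pathway at -0.33 ± 0.09 (log2 ± SE, adjusted p = 0.168). Over all genes tested, 48.7% lay above 0 and 7.76% stood apart downwards.

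**Figure D3:**
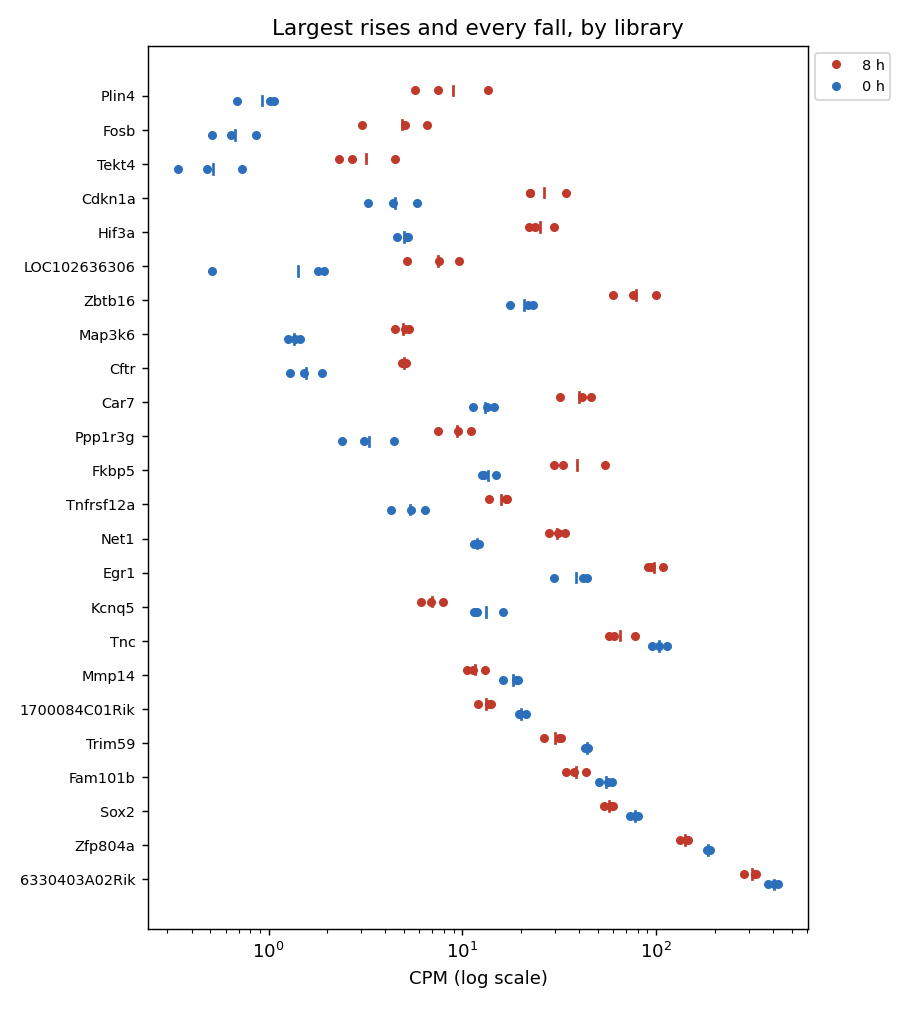
CPM on a log scale in each library for the 15 called genes with the largest rise, from Plin4 down to Egr1, and below them the 9 genes that fell, with 8 h libraries in red above 0 h libraries in blue and bars at the group means (n = 3 each). The groups do not overlap for any gene shown, and the gaps of the falls are narrow beside those of the rises.

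Among the 15 largest rises were also genes outside these pathways. Net1, an exchange factor for the small GTPase RhoA, stood at 31.3, 33.6 and 27.8 CPM at 8 h and at 11.4, 11.9 and 12.2 CPM at 0 h (log2 fold change 1.38 ± 0.10 SE, adjusted p = 0.000422). It had the second smallest adjusted p of all genes, after Hif3a, and the ratio between its closest libraries was 2.29. Tekt4, a filament protein of cilia and sperm tails, rose by 2.50 ± 0.38 (log2 ± SE, adjusted p = 0.0164), with 2.30, 4.49 and 2.70 CPM at 8 h and 0.341, 0.481 and 0.731 CPM at 0 h. Its value in 0 h replicate 1 lies under the 0.512 CPM that 3 reads make in that library. The fits that lost it left out 0 h replicate 1 (adjusted p = 0.0685), 0 h replicate 2 (0.0523) and 8 h replicate 2 (0.0609). Tekt4 was on the list of choroid plexus and ependymal genes, of which 7 of 17 were tested and no other passed, and the summed level of that list was 31.4 to 35.9 CPM at 8 h and 31.0 to 40.3 CPM at 0 h. Its call is 14.3% of the 7, against 0.528% of all genes tested called higher. LOC102636306, a gene model with no entry in the RefSeq table used here, rose by 2.22 ± 0.32 (log2 ± SE, adjusted p = 0.0136), with 9.59, 7.58 and 5.16 CPM at 8 h and 0.512, 1.92 and 1.79 CPM at 0 h. Its 0 h replicate 1 value rests on 3 reads, and the call was lost without 0 h replicate 3 (adjusted p = 0.0544) and without 8 h replicate 2 (0.073).

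Smaller rises with tight replicates were frequent, and 43 of the 81 genes that rose belonged to none of the 26 lists. Prr5, a subunit of the mTORC2 complex, stood at 11.2, 11.6 and 11.2 CPM at 8 h and at 5.63, 5.19 and 5.38 CPM at 0 h (log2 fold change 1.08 ± 0.12 SE, adjusted p = 0.00287). Tunar, a long non-coding RNA of neural cells and the 1 called member of 12 on the nuclear RNA list, stood at 98.9, 111 and 92.8 CPM at 8 h and at 55.6, 57.0 and 62.3 CPM at 0 h (log2 fold change 0.78 ± 0.08 SE, adjusted p = 0.0019). That call is 8.33% of the list, against 0.528% of all genes tested called higher. Adipor2, a receptor for adiponectin, stood at 126, 122 and 124 CPM at 8 h and at 80.7, 86.4 and 87.0 CPM at 0 h (log2 fold change 0.54 ± 0.06 SE, adjusted p = 0.00256). These 3 genes were called in all 6 single-library fits, as were Fam83d, Fam19a4, Arid5b and Sergef, at log2 fold changes of 1.17, 0.68, 0.66 and 0.65. Fam19a4 encodes a secreted chemokine-like protein and Arid5b a DNA-binding chromatin factor.

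Further genes in none of the lists rose, and those named here were picked after their values were seen. Hrh3, the histamine H3 receptor of neurons, stood at 186, 210 and 209 CPM at 8 h and at 156, 135 and 139 CPM at 0 h (log2 fold change 0.50 ± 0.07 SE, adjusted p = 0.0161). The fits that lost it left out 8 h replicate 2 (adjusted p = 0.116), 8 h replicate 3 (0.0689) and 0 h replicate 3 (0.0589), and 12.9% of its exonic bases overlap Gm17180 on the other strand. Adrb1, the beta-1 adrenergic receptor, and Grik3, a kainate-type glutamate receptor subunit, rose by 0.42 ± 0.08 and 0.46 ± 0.08 on the log2 scale (SE, adjusted p = 0.0376 and 0.0362), and no single-library fit called either of them. Lfng, a glycosyltransferase that tunes Notch receptors, rose by 0.69 ± 0.09 (log2 ± SE, adjusted p = 0.00927). St3gal4, a sialyltransferase, rose by 0.51 ± 0.08, and B4galnt4, which adds an amino sugar, by 0.39 ± 0.06 on the log2 scale (SE, adjusted p = 0.0218 and 0.0192). Each of the pair was called in 2 of the 6 single-library fits, with an adjusted p of 0.116 without 8 h replicate 2. Xylt2, which starts proteoglycan chains, rose by 0.46 ± 0.06, and Hs6st1, which adds sulfate to heparan chains, by 0.40 ± 0.06 on the log2 scale (SE, adjusted p = 0.0106 and 0.012). Lfng and Xylt2 were called in 5 and Hs6st1 in 4 of the 6 fits.

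The remaining rises were of 1.27-fold to 2.23-fold. Plekhf1, a protein of lysosomes and endosomes, stood at 13.4, 11.5 and 11.8 CPM at 8 h and at 3.24, 6.90 and 5.32 CPM at 0 h (log2 fold change 1.16 ± 0.19 SE, adjusted p = 0.0282), and was called in 2 of the 6 single-library fits. Polr3e, a subunit of RNA polymerase III, stood at 53.5, 45.9 and 60.5 CPM at 8 h and at 32.8, 32.3 and 33.7 CPM at 0 h (log2 fold change 0.69 ± 0.10 SE, adjusted p = 0.0126). Plekha7, a protein of cell junctions, stood at 181, 188 and 167 CPM at 8 h and at 131, 112 and 107 CPM at 0 h (log2 fold change 0.62 ± 0.08 SE, adjusted p = 0.00857). Polr3e and Plekha7 were each called in 5 of these fits. Cited2, a transcriptional co-regulator, Bcl2l1, an inhibitor of cell death, and Rtn4rl1, a member of the Nogo receptor family, rose by 0.59, 0.40 and 0.37 on the log2 scale and were each called in 1 fit (adjusted p = 0.0232, 0.0245 and 0.0341 with all 6 libraries). Herpud1, a protein of the degradation system of the endoplasmic reticulum and the 1 called gene of 27 on the heat shock list, rose by 0.37 ± 0.06 (log2 ± SE, adjusted p = 0.0293), with 63.6, 63.5 and 64.6 CPM at 8 h and 49.8, 49.2 and 49.8 CPM at 0 h, and no single-library fit called it. Of 20 engulfment and complement genes, Mertk alone was called. Such single calls are 3.7% of the heat shock list and 5.0% of the engulfment list, against 0.528% of all genes tested called higher.

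The 9 genes that fell had log2 fold changes of -0.38 to -0.94. Kcnq5, a potassium channel of the M current, stood at 6.85, 7.96 and 6.08 CPM at 8 h and at 11.9, 16.1 and 11.4 CPM at 0 h (log2 fold change -0.94 ± 0.16 SE, adjusted p = 0.0344). Tnc, the matrix glycoprotein tenascin C, stood at 77.5, 56.7 and 60.2 CPM at 8 h and at 94.7, 103 and 113 CPM at 0 h (log2 fold change -0.68 ± 0.11 SE, adjusted p = 0.0282). Mmp14, a protease anchored at the cell surface, stood at 13.1, 11.3 and 10.6 CPM at 8 h and at 16.2, 18.9 and 19.4 CPM at 0 h (log2 fold change -0.65 ± 0.12 SE, adjusted p = 0.0397). Sox2, a transcription factor of glia and progenitors, stood at 59.5, 58.1 and 53.6 CPM at 8 h and at 80.6, 77.7 and 73.3 CPM at 0 h (log2 fold change -0.43 ± 0.07 SE, adjusted p = 0.0245). The groups of these 4 genes stood apart, yet none was called in more than 2 of the 6 single-library fits, and without 8 h replicate 2 or 0 h replicate 1 just 1 gene was called lower in each fit.

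The other falls were those of Trim59, a ubiquitin ligase, at -0.54 ± 0.09, Fam101b, a regulator of actin filaments, at -0.54 ± 0.10, and Zfp804a, a zinc finger protein of neurons, at -0.40 ± 0.06 (log2 ± SE, adjusted p = 0.0232, 0.0415 and 0.0164). Trim59 stood at 31.5, 26.4 and 32.1 CPM at 8 h and at 43.9, 43.0 and 44.4 CPM at 0 h. Fam101b stood at 34.2, 37.6 and 43.3 CPM at 8 h and at 50.5, 56.2 and 58.9 CPM at 0 h. Zfp804a stood at 144, 132 and 145 CPM at 8 h and at 184, 182 and 189 CPM at 0 h. The uncharacterised genes 1700084C01Rik and 6330403A02Rik fell as well, at -0.59 ± 0.10 and -0.38 ± 0.07 (log2 ± SE, adjusted p = 0.0293 and 0.047). The first stood at 12.07, 13.7 and 14.1 CPM at 8 h and at 21.2, 19.5 and 19.8 CPM at 0 h, and the second at 322, 325 and 285 CPM at 8 h and at 379, 407 and 425 CPM at 0 h. Neither was called in any single-library fit, and 35.8% of the exonic bases of 1700084C01Rik overlap Gm15852 on the other strand.

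Tnc and Mmp14 were the 2 of 31 tested matrix and protease genes that fell, and none rose. The falls are 6.45% of the list, against 0.0587% of all genes tested. Of all genes tested, 7.76% stood apart downwards and 8.52% upwards. In this list 2 members stood apart upwards and 8 downwards, which is 2 called genes and 6 that did not pass. Those 6 included the matrix proteases Mmp2 at -0.72, Adamts4 at -0.27 and Adamts5 at -0.31 on the log2 scale. The median of the list was -0.04, and Acan, the core protein of perineuronal nets, lay at 0.81 ± 0.27 (log2 ± SE, adjusted p = 0.31) with overlapping groups. In the potassium and HCN channel list, 1 of 34 genes fell, Kcnq5, and 1 rose, Kcnn3, a calcium-activated channel, at 0.52 ± 0.09 (log2 ± SE, adjusted p = 0.0341), called in 1 of the 6 single-library fits and with an adjusted p of 0.189 without 8 h replicate 2. Each call is 2.94% of the list, against 0.528% of all genes tested called higher and 0.0587% called lower. Kcnn3 stood at 148, 151 and 118 CPM at 8 h and at 95.4, 98.9 and 96.3 CPM at 0 h. Kcnn2, its relative, had a log2 fold change of 0.61 with groups apart and did not pass.

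Few markers of cell types passed, which does not show that their levels were unchanged. Log2 fold changes ran from -2.245 to 0.462 in the cortical and hippocampal list and from -0.59 to 1.321 in the inhibitory neuron list. No member passed among 15 thalamic relay neuron markers, 17 inhibitory neuron markers, 15 cortical and hippocampal markers, 18 myelinating oligodendrocyte markers, 13 oligodendrocyte precursor markers, 18 microglia markers, 5 blood genes and 11 proliferation genes. Among 17 astrocyte markers, Fgfr3, a growth factor receptor, rose by 0.36 ± 0.06 (log2 ± SE, adjusted p = 0.0274), with 206, 222 and 201 CPM at 8 h and 166, 164 and 159 CPM at 0 h, Sox2 fell as described, and the list had a median of 0.02. Each call is 5.88% of that list, against 0.528% of all genes tested called higher and 0.0587% called lower. In bulk tissue, fewer cells of a type and less RNA per cell cannot be told apart.

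The summed level of the microglia list was 403, 389 and 379 CPM in 8 h replicates 1 to 3 and 455, 423 and 428 CPM in 0 h replicates 1 to 3, so the groups did not overlap. Over all genes tested, 48.7% lay above 0 and 7.76% stood apart downwards. Of the 18 microglia genes, 15 lay below 0 and 7 stood apart downwards, with a median log2 fold change of -0.18. Among these were Gpr34 at -0.50, P2ry12 at -0.32 and Cx3cr1 at -0.31, which encode receptors of resting microglia. Summed relay neuron markers stood at 8754 to 9210 CPM at 8 h and 8533 to 8673 CPM at 0 h, so these groups did not overlap either, with 8 h higher. Among the 15 relay neuron markers, 3 stood apart upwards and 1 downwards, against 8.52% and 7.76% of all genes tested. Their median log2 fold change was 0.03. Myelin genes summed to 24300 to 27730 CPM at 8 h and 26470 to 28510 CPM at 0 h, with 15 of 18 below 0. Cortical and hippocampal markers summed to 2134 to 2323 CPM at 8 h and 1993 to 2761 CPM at 0 h, with the highest value in 0 h replicate 2. The part of these shifts in the changes of other genes was not tested.

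**Figure D4:**
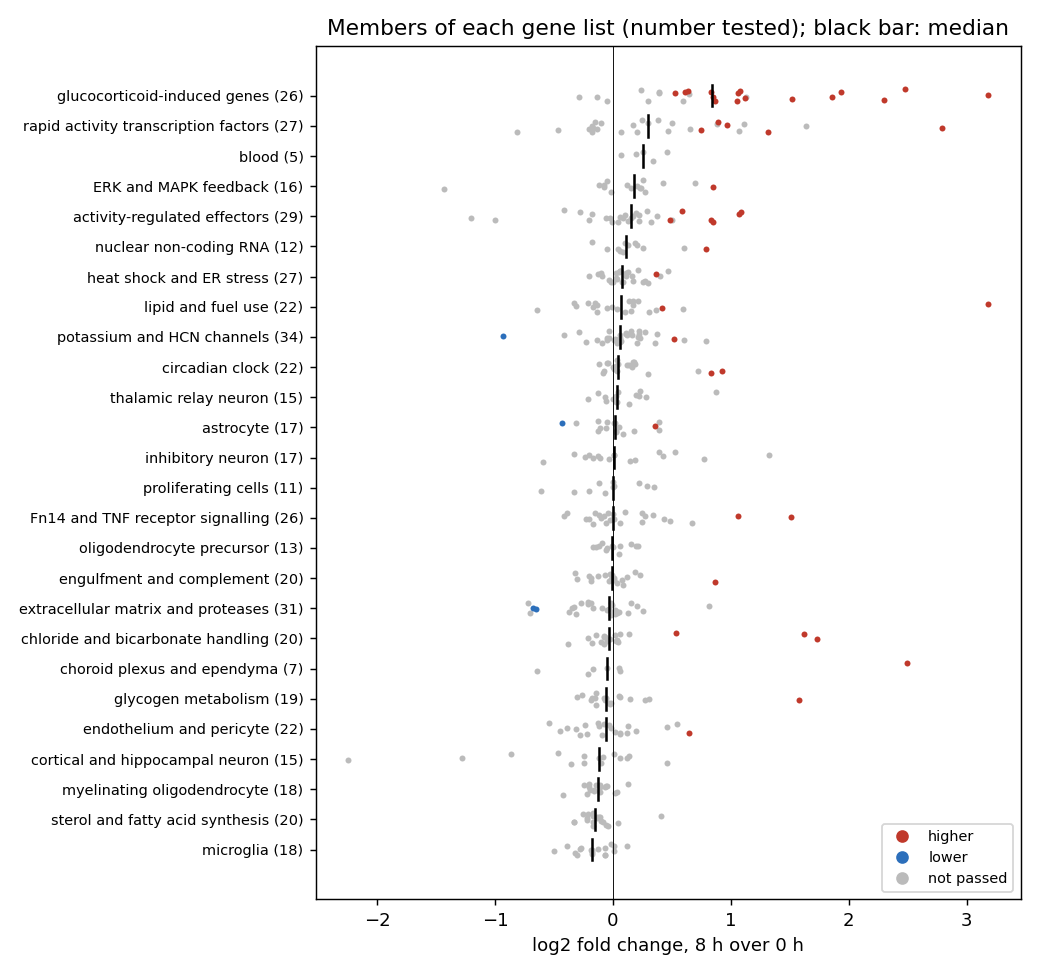
Log2 fold change of 8 h over 0 h for each tested member of the 26 gene lists, ordered by their median (black bar), with the number tested in brackets. Red points rose, blue points fell and grey points did not pass. Glucocorticoid-induced genes stand at the top with a median of 0.84, and microglia markers at the bottom with a median of -0.18.

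Per length, 0 h levels of the called genes ran from 0.132 CPM per kb for Plin4 to 94.4 CPM per kb for Cdk5r1, which encodes the activator p35 of the kinase CDK5. Cdk5r1 rose by 0.38 ± 0.06 (log2 ± SE, adjusted p = 0.0238), with 508, 533 and 478 CPM at 8 h and 387, 381 and 402 CPM at 0 h, and the next in level per length, Mt2 and Ttyh3, stood at 78.4 and 73.8 CPM per kb in darkness. Ttyh3, a membrane protein of the tweety family, rose by 0.41 ± 0.06 (log2 ± SE, adjusted p = 0.0122). Ttyh3 and Lfng lie 5033 bases apart on chromosome 5, and Scrt2, a neuronal transcriptional repressor, and Srxn1, an antioxidant enzyme, lie 9722 bases apart on chromosome 2. Fkbp5 and Ppard lie 97284 bases apart on chromosome 17. LOC102637223, a gene model with no entry in the RefSeq table, overlaps Hr, a nuclear receptor co-repressor, on the same strand of chromosome 14, so that the pair may share reads. LOC102637223 rose by 0.71 ± 0.12 and Hr by 0.53 ± 0.09 (log2 ± SE, adjusted p = 0.0282 and 0.0245). These 4 pairs were sought among the 90 called genes alone, within 200 kb. Both genes of each pair rose, which the selection favours, since 81 of the 90 rose.

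The authors' deposited table lists 238 genes at an FDR under 0.05, 197 higher and 41 lower at 8 h. All 90 genes called here are among them. In the authors' deposited table the fold change is 9.24 for Plin4, 4.95 for Hif3a, 2.61 for Net1 and 0.527 for Kcnq5.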

How the data were processed

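RNA of dLGN tissue was measured in 6 libraries. The deposited tables of higher and lower genes were joined. The authors deposited raw counts, used here, and a density signal, which was not used. They also deposited a mean CPM, a fold change as a ratio, and a p-value and FDR per gene, and the ratio and FDR are quoted as theirs. The tools named per the submitters' processing notes are BWA and edgeR 3.14.0, on GRCm38 (mm10), with no step given for either. No source names the counting program or whether it used strand. The lowest sum over the 6 libraries was 4 reads, and genes below that were not analysed here. Symbols stored as dates, 25 in all, were restored by Entrez number.

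The test on the counts was quasi-likelihood in edgeR 4.0.16 (functions glmQLFit, glmQLFTest; TMM scaling; filterByExpr) under R 4.3.3, with Benjamini-Hochberg adjustment at 0.05 and two-sided tests. The script was tested on simulated data. Each SE is the log2 fold change divided by the root of F. CPM uses TMM-scaled totals. A level of 3 reads is 0.135 CPM in the deepest and 0.512 CPM in the shallowest library, for counting error only. Replicates differed by a chi-square per gene of 4.95 to 22.8 over counting noise. The p-values weigh the group difference against the spread between libraries, as edgeR moderates it over genes.

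Alternatives were DESeq2 1.42.0, limma 3.58.1 (voom), the exact test, other scalings and filters, the legacy option, a replicate block, and leaving out libraries. Full values are given for the 15 largest rises, all falls, called members of the lists, and the series' receptor and ligand. Other genes were named after their values were seen. Members and lists were chosen with earlier results of these data known. No list was given a test. Exon overlaps come from GENCODE M21, and promoters from RefSeq.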

Additional observations from a re-analysis of the deposited data

How the results depend on the processing

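All 90 calls remained under DESeq2 (262 genes, 214 higher and 48 lower), the exact test (269 genes, 218 higher and 51 lower), DESeq2-type size factors, no filter, a minimum of 1 CPM in 3 libraries and the legacy option. With library totals alone 79 genes were called, of which 77 were among the 90, and limma-voom called 96, of which 88 were among them. A replicate block called 158 genes, 138 higher and 20 lower, all 90 included. The correlation of same-numbered libraries' deviations was 0.017, 0.142 and 0.142. For 8 h replicates 2 and 3 the highest value was with the same number. For 8 h replicate 1 it was with 0 h replicate 2, at 0.023. Whether the numbers pair the libraries was not tested. Fits that left out a single library called 33 to 84 genes, 32 to 77 higher and 1 to 7 lower, and 23 to 35 genes of the lists against 42. Those fits test more genes on fewer libraries. A fit without both libraries with the most Neurod6 (0 h replicate 2 and 8 h replicate 1), chosen after seeing the data, called 131 genes, 115 higher and 16 lower, of which 63 were among the 90. No called gene changed direction in any fit. Signs turned for named genes that did not pass. Bdnf was at 0.022 without both Neurod6-high libraries, and Clock at 0.007 with no filter, 0.002 with the block and 0.038 without those libraries. Over single-library fits Clock ran from -0.045 to 0.046, Igf1 from -0.013 to 0.276, Arntl from -0.139 to 0.075, Dbp from -0.10 to 0.16, Nr1d1 from -0.13 to 0.03, Slc17a6 from -0.03 to 0.06, Gad2 from -0.25 to 0.42, Ddx3y from -1.302 to 0.068 and Neurod6 from -4.297 to 1.303. The cause was not tested. The 0 h group holds the shallowest library, which limits genes under about 0.512 CPM.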
